A study of Mus musculus with 3 samples.

Results

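miR-451a, miR-144 and miR-486 are the microRNAs (miRNAs, small RNAs that hold down messenger RNAs) best known from developing red blood cells, and their levels were read here in the visceral fat of mice. The members were the rows named miR-451a, miR-144-3p, miR-144-5p, miR-486-5p and miR-3107-5p, 5 of the 1251 mature miRNAs in the table of normalized values. The miR-486-5p and miR-3107-5p rows held identical values (within 1e-06 in each mouse), so the pair was counted once and there were 4 members to describe. Small RNA was sequenced from the epididymal fat of 3 C57BL/6J mice, numbered 1, 3 and 9. All 3 had eaten a high-fat diet with added EPA (eicosapentaenoic acid, a fatty acid of fish oil). Its energy came to 45% from fat, to 20% from protein and to 35% from carbohydrate, and EPA made up 6.75%. The mice started the diet at 5 to 6 weeks of age, stayed on it for 11 weeks and were fasted for 4 h before the fat was removed. No control diet was analysed here, so no value below is an effect of EPA. Only the sample titles and a statement of 3 samples per group mark the samples as separate, so p-values measure no more than how these samples spread, and that may be technical. Whether blood was washed out of the tissue is not given in the sources used here.

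As background, miR-144 and miR-451a are cut from 1 primary transcript that the red cell factor GATA1 switches on, and miR-486 lies in an intron of Ank1, the gene of the red cell membrane protein ankyrin-1. miR-451a is the best-known exception in how miRNAs are made: its hairpin is too short for Dicer and is cut by the Argonaute protein Ago2 instead. miR-451a restrains the adaptor 14-3-3 zeta in red cell precursors, and miR-144-3p restrains the antioxidant regulator Nrf2. miR-486-5p is abundant in skeletal and heart muscle as well as in red cells. Fat tissue is not known as a main source of any of them, and whole fat pieces contain blood vessels and blood.

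RefSeq sequences (GRCm38.p6) matched 3 of the 5 names. They are shown because the seed, bases 2 to 8 counted from the 5′ end and written in capitals, decides which messenger RNAs a miRNA binds and so whether any other miRNA of the fat could act on the same targets.

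miR-451a: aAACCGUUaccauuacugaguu
miR-144-5p: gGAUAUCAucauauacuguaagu
miR-144-3p: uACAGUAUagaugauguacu

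The 3 seeds differ from each other, although miR-144 and miR-451a share a transcript. Among the 1001 rows of the table with a RefSeq sequence, 0 others had the seed of miR-451a, of miR-144-5p or of miR-144-3p. With bases 2 to 7 alone, 1 row matched miR-144-3p, the row of miR-101a-3p, and 0 matched either of the others. miR-101a-3p is shown with those 6 shared bases in capitals, since the match ends at the base after them.

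miR-101a-3p: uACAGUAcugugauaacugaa

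miR-101a-3p stood at 8.32, 8.36 and 8.44 log2 units in mice 1, 3 and 9, above miR-144-3p in each mouse. The miR-144 strands are also poor in G and C, with 30.4% for miR-144-5p and a little less for miR-144-3p. miR-451a had 36.4%, and the median of the 249 sequences whose rows stood above the floor in every mouse was 47.8%. The part of base composition in the levels was not tested.

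The 2 hairpins that give these strands are neighbours, and their full sequences are shown because their shapes differ. Capitals mark the mature strands.

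Mir451a: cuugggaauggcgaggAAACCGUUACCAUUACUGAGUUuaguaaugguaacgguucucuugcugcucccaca
Mir144: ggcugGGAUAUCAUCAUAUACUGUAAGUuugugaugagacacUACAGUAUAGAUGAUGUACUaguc

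In the fold computed with RNAfold, Mir451a closed into 30 base pairs with a loop of 4 bases. Its mature strand, bases 17 to 38 of the 72, had 18 bases on the 5′ side of the stem and 4 in the loop. Mir144 gave 27 base pairs and a loop of 6 bases, and its mature strands lay outside the loop, 1 on each side of the stem, with 20 of 23 bases of miR-144-5p paired and 19 of 20 of miR-144-3p.

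On GRCm38 (mm10), Mir144 covers chromosome 11 from 78073005 to 78073070 on the plus strand and Mir451a covers 78073170 to 78073241 on the same strand, with 99 bases between them. In the GENCODE M21 annotation Mir144 overlapped no other gene, and Mir451a overlapped only Mir451b, a hairpin on the opposite strand at the same position. The nearest other genes were Flot2, 12570 bases upstream of Mir144, and Eral1, 134 bases downstream of Mir451a on the minus strand. Mir486 covers chromosome 8 from 23142555 to 23142682 on the plus strand in an intron of Ank1. Mir3107 covers 23142573 to 23142662 on the minus strand and lies inside the span of Mir486, so the 2 hairpins are read from opposite strands of 1 stretch of DNA.

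miR-486-5p was by far the highest of the group in the fat, miR-451a came next, and the 2 strands of miR-144 were low. Values are given as deposited, in log2 units of a normalized count with a constant added. The lowest value in the table, 3.32, is called the floor. Read depth is unknown here, because only normalized values were deposited.

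miR-486-5p stood at 15.63 in mouse 1, 14.95 in mouse 3 and 14.81 in mouse 9, with a mean of 15.13 ± 0.43 (SD, n = 3). It ranked 12, 17 and 18 among all miRNAs of the 3 mice (ranks within a mouse count the shared row under both names). Mouse 1 was the highest, and mice 3 and 9 lay close together. The neighbours of miR-486-5p by mean level were let-7f-5p (15.34 ± 0.20) and miR-125a-5p (15.38 ± 0.15) above it, and miR-27b-3p (15.07 ± 0.08) and miR-99b-5p (14.85 ± 0.32) below it. Its own range covered the values of miR-27b-3p in all 3 mice and of let-7f-5p in all 3, so its place among them was not set beyond the spread between mice.

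miR-451a stood at 12.74, 12.20 and 12.07 in mice 1, 3 and 9, with a mean of 12.33 ± 0.35 (SD, n = 3) and ranks of 42, 50 and 52. Mouse 1 was again the highest. By mean level it fell between miR-100-5p (12.41 ± 0.08) and miR-23b-3p (12.39 ± 0.17) on one side and miR-186-5p (12.28 ± 0.05) and miR-93-5p (12.08 ± 0.07) on the other. The range of miR-451a overlapped those of all 4 neighbours.

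miR-144-5p, the strand from the 5′ side of the hairpin, stood at 5.90, 6.08 and 4.52 in mice 1, 3 and 9. Its mean was 5.50 ± 0.85 (SD, n = 3) and its ranks were 218, 211 and 260. Here mice 1 and 3 were high and mouse 9 low, with 49.7, 57.4 and 13.0 normalized counts above the floor. miR-144-3p, the strand usually named as the active one in red cells, was above the floor in mouse 1 alone, at 3.83, which is 4.18 normalized counts above it. In mice 3 and 9 miR-144-3p stood at the floor, which shows that it was not detectable there and not that it was absent.

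**Figure D1:**
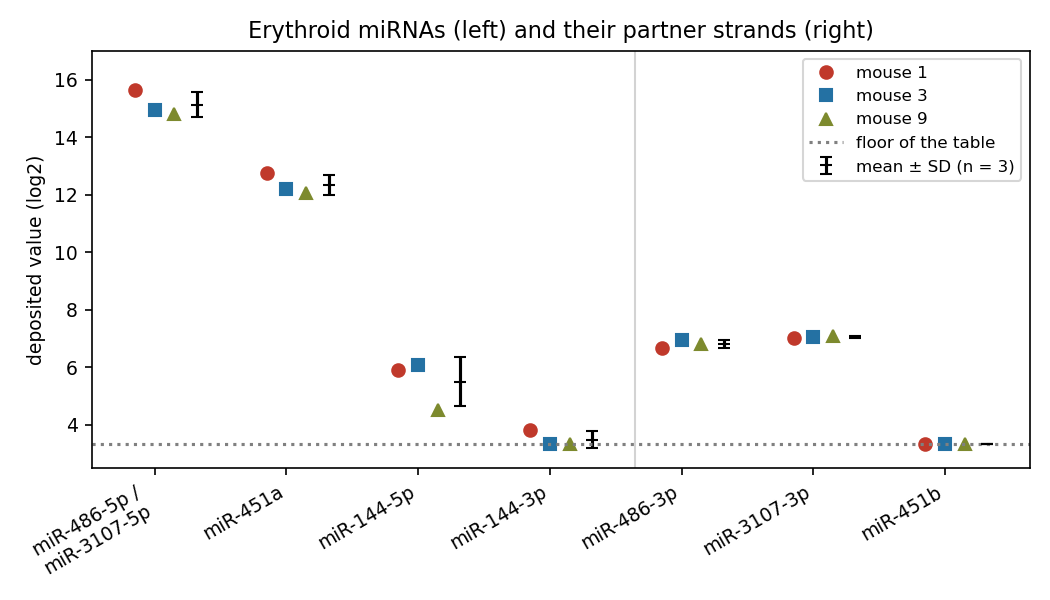
Deposited log2 values (vertical axis) of the erythroid miRNAs and of partner strands from the same or the opposite hairpin, with 1 point per mouse, the mean and SD of the 3 mice beside them and the floor of the table as a dotted line. miR-486-5p and miR-451a stand far above the floor in every mouse, miR-144-5p is lowest in mouse 9 at 4.52, and miR-144-3p leaves the floor only in mouse 1.

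Of the 4 members, 3 stood above the floor in every mouse and 1 in a single mouse. Of all miRNAs listed, 22.9% (287 of 1251) stood above the floor in every mouse, and 888 were at it throughout. The median of the member means was 8.92 log2 units, beside 3.32 over all miRNAs and 8.02 over the 287 seen in every mouse. These medians describe a list of 4 whose means ran from 3.49 to 15.13.

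**Figure D2:**
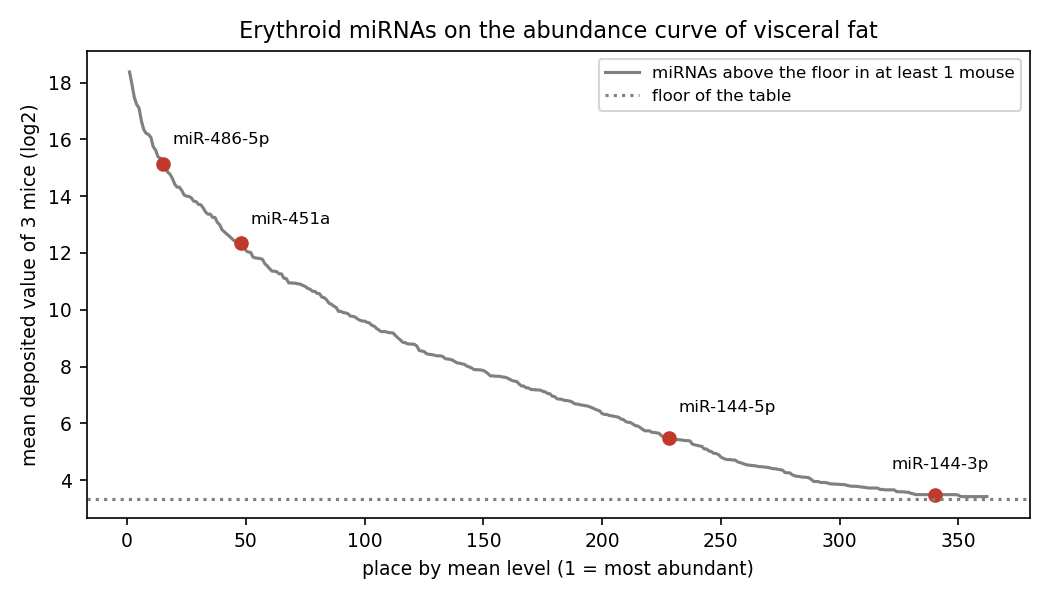
Mean log2 value of the 3 mice (vertical axis) against the place by mean level (horizontal axis) for miRNAs above the floor in at least 1 mouse, with the shared miR-486-5p row counted once. miR-486-5p takes place 15, miR-451a place 48, miR-144-5p place 228 and miR-144-3p place 340, so the group spans nearly the whole curve. Other miRNAs tie with miR-144-3p at the same mean, so its exact place among them is arbitrary.

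The order of the members was the same in each mouse. miR-486-5p exceeded miR-451a by 2.89, 2.76 and 2.75 log2 units in mice 1, 3 and 9, a mean of 2.80 ± 0.08 (SD, n = 3). On the linear scale that was 7.42, 6.76 and 6.72 times. The gap between these 2 miRNAs, which come from different chromosomes, thus varied less between mice than either level did. miR-451a exceeded miR-144-5p by 6.84, 6.12 and 7.55 log2 units, a mean of 6.84 ± 0.71. On the linear scale this was 137, 81.6 and 331 times, with the widest gap in mouse 9, where miR-144-5p was lowest. miR-144-5p exceeded miR-144-3p by 2.07, 2.75 and 1.20, a mean of 2.01 ± 0.78. Each of the 3 differences had the same sign in 3 of 3 mice, and an exact sign-flip permutation test, two-sided, gave p = 0.25 for each (0.25 adjusted over the 3 pairs), the smallest that 3 mice allow. Library preparation can capture some sequences better than others, and differences between miRNAs are not corrected for this.

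Counting the shared row once, the group held 2.44%, 1.54% and 1.39% of the summed linear value in mice 1, 3 and 9, a mean of 1.79% ± 0.567 (SD, n = 3). miR-486-5p made up 88.0%, 87.0% and 87.0% of that. Without it the share of the group was 0.291%, 0.200% and 0.181%, nearly all of it miR-451a. Mouse 1 was the highest with miR-486-5p and without it. Counting both names of the shared row would raise the mean share of the group to 3.30%.

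miR-144 and miR-451a come from neighbouring hairpins, so the gap between them could be set beside other neighbours. Pairs of adjacent hairpins on 1 strand, at most 10 kb apart and with at least 1 of them above the floor in all mice, numbered 86, and the larger strand of each hairpin was compared. The difference between Mir144 and Mir451a, upstream minus downstream, was -6.84 log2 units (moderated SE 0.31, n = 3), negative in 3 of 3 mice. In limma's moderated test against 0 (two-sided), the Benjamini-Hochberg adjusted p over the 86 pairs was 2.19e-05, and over its alternatives it ran from 1.32e-06 to 0.0106. A difference between neighbours was the rule: the downstream hairpin was higher in 50% of pairs at an adjusted p below 0.05 and the upstream one in 47.7%, so passing this test does not mark miR-144 and miR-451a out.

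In size, 11 of the 86 pairs differed by more than Mir144 and Mir451a, and 7 of the 60 pairs at most 1 kb apart did, while the median size was 3.04. The 5 largest differences were 14.62 for Mir26a-2 over Mir546, 10.72 for Mir92-2 over Mir363, -9.56 for Mir19b-1 and Mir92-1, -9.56 for Mir19b-2 and Mir92-2, and -8.999 for Mir433 and Mir127. Several of these involve a miRNA made by more than 1 hairpin, such as miR-26a-5p, miR-19b-3p and miR-92a-3p, whose level cannot be split between its sources. miR-144 and miR-451a each come from 1 hairpin in the RefSeq table. Only 1 hairpin of a pair had to stand above the floor. Where the other stood at it, as miR-363-5p did, the size of the difference depends on the constant added. Being neighbours does not by itself show that 2 hairpins share a transcript.

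**Figure D3:**
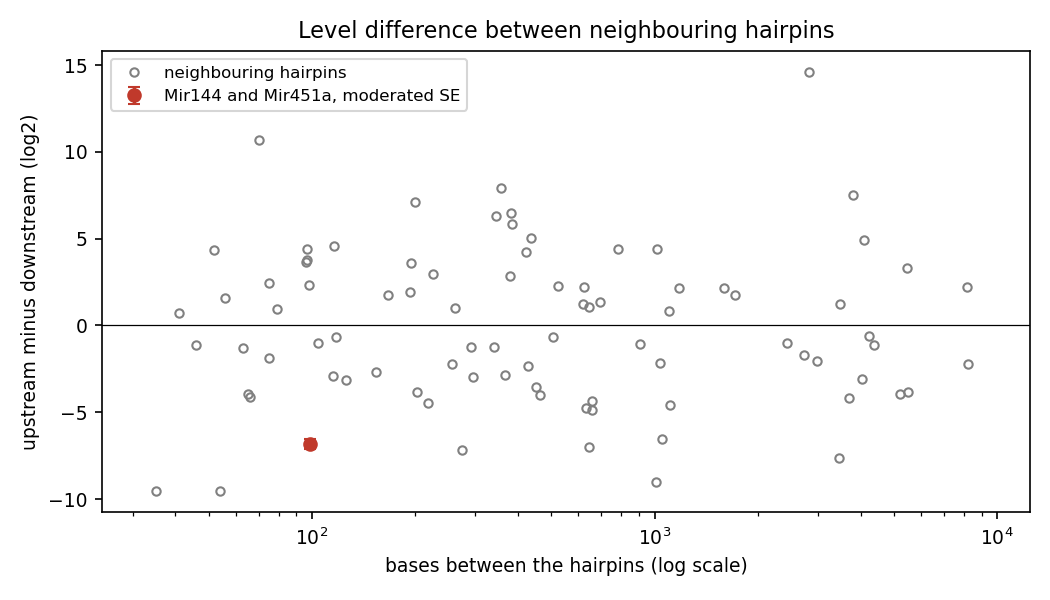
Difference in log2 level between the larger strands of adjacent hairpins, upstream minus downstream (vertical axis), against the bases between them (horizontal axis, log scale) for 86 pairs, each point the mean of 3 mice. Mir144 and Mir451a, 99 bases apart and marked with the moderated SE, lie at -6.84 and are exceeded in size by 11 pairs.

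A hairpin gives a 5p and a 3p strand, and usually 1 of them is kept. miR-486 kept the 5p strand: miR-486-3p stood at 6.68, 6.94 and 6.80 in mice 1, 3 and 9, against the 15.63, 14.95 and 14.81 of miR-486-5p. The log2 ratio of 5p to 3p was 8.95, 8.01 and 8.01, a mean of 8.32 (moderated SE 0.26, n = 3), positive in 3 of 3 mice. limma's test over the 167 hairpins with both strands listed and 1 of them above the floor in all mice gave an adjusted p of 7.56e-06 (2.44e-06 to 0.00396 over its alternatives). The 5p strand was higher at an adjusted p below 0.05 in 47.9% of these hairpins and the 3p strand in 47.3%. The miR-486 ratio was exceeded in size by 21 hairpins.

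The 3p strands have rows of their own with differing values. Their sequences were not compared here, so whether their reads could be assigned to either hairpin is not known. miR-3107-3p, named for the hairpin on the opposite strand, stood at 7.001, 7.044 and 7.079 in mice 1, 3 and 9. It was above miR-486-3p in each mouse, by means of 7.04 ± 0.04 against 6.81 ± 0.13 (SD, n = 3). Neither 3p strand followed the 5p row between mice: both were lowest in mouse 1, where miR-486-5p was highest. The miR-3107 ratio, which uses the same 5p values, was 8.09 (moderated SE 0.24, n = 3; limma adjusted p 6.86e-06) and is not a second observation. How the reads of the shared 5p row, or of the 3p rows, were divided between the hairpins cannot be told from the table.

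miR-144 leaned to its 5p strand, by 2.01 log2 units (moderated SE 0.34, n = 3), positive in 3 of 3 mice, with an adjusted p of 0.00383 by limma and 123 hairpins more one-sided. This call rests on few counts and on the floor, where miR-144-3p stood in 2 of 3 mice. The ratio was 4.32 with a constant of 1 in place of 10 and 0.90 with a constant of 40, and the adjusted p was 0.0611 without mouse 1 and 0.0797 with all hairpins kept, against 0.00429 at the lower end of its alternatives. miR-451a has a single strand in the table, and miR-451b, from the opposite strand of its hairpin, stood at the floor in all 3 mice.

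**Figure D4:**
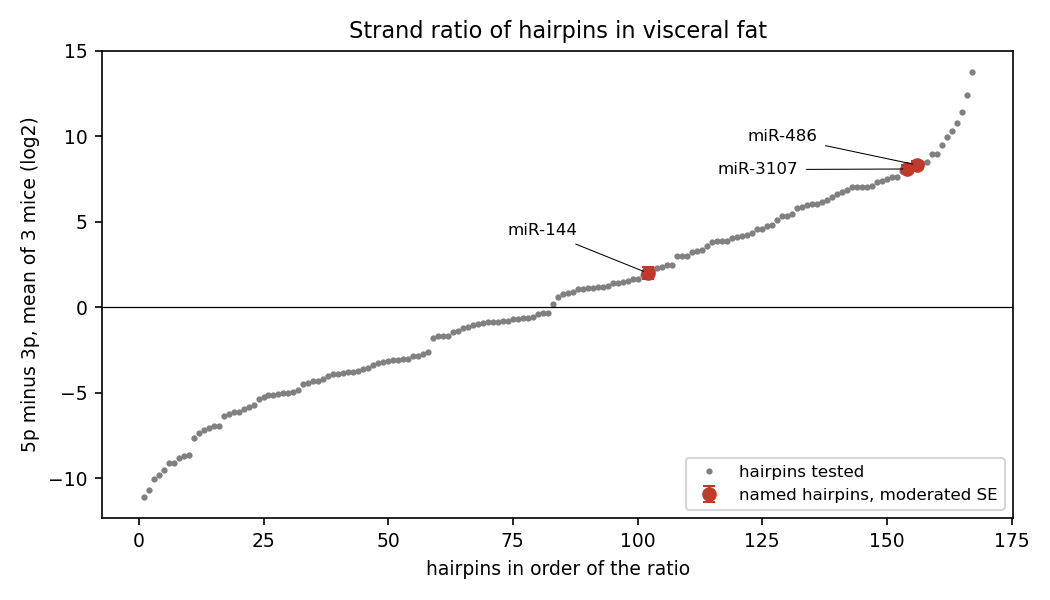
Log2 ratio of the 5p to the 3p strand (vertical axis, mean of 3 mice) for 167 hairpins in order of the ratio (horizontal axis), with miR-144, miR-486 and miR-3107 marked with their moderated SE. miR-486 (8.32) and miR-3107 (8.09) lie near the upper end, and miR-144 (2.01) lies among the less one-sided of the hairpins that lean to 5p.

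Between mice, miR-486-5p and miR-451a differed in the same order, with mouse 1 above mouse 3 and mouse 3 above mouse 9. Relative to their own means, miR-486-5p stood at 0.49, -0.18 and -0.32 log2 units and miR-451a at 0.40, -0.14 and -0.27. miR-144-5p, from the miR-451a transcript, did not follow this order, being highest in mouse 3. Mouse 9 had the lowest value for all 3 members above the floor in every mouse, where 25.8% of the 287 such miRNAs were lowest in mouse 9, and mouse 1 the highest for 2 of the 3, where 28.9% were. With 1 group of 3 mice these orders are a description.

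The SDs of miR-486-5p (0.43) and miR-451a (0.35) were above the median of 0.27 for miRNAs seen in all mice, but 84 and 106 of those 286 miRNAs varied more. The SD of miR-144-5p (0.85) was exceeded by 27 of 286. Low miRNAs vary more on this scale: among the 143 with a mean under 8 log2 units the median SD was 0.38 and 24 exceeded miR-144-5p.

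The miRNAs whose differences between mice were most like those of a member were sought by the summed absolute difference of mean-centred log2 values over the 3 mice, among 285 others seen in all mice. For miR-451a the nearest was miR-152-3p at 0.13, followed by miR-486-5p at 0.19, miR-434-3p at 0.19, miR-409-3p at 0.22 and miR-106b-3p at 0.24. For miR-486-5p the nearest was miR-409-3p at 0.16, followed by miR-382-5p at 0.18, miR-451a at 0.19, miR-152-3p at 0.28 and miR-411-5p at 0.30. So miR-486-5p and miR-451a were each among the 5 nearest of the other, beside miRNAs that are not erythroid. Values over 3 mice, all scaled to a nearly common set, leave few distinct patterns, and no test was made.

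Other miRNAs known to be abundant in red cells were also present. Of 15 listed, 13 stood above the floor in every mouse, while miR-363-3p and miR-96-5p never left it, and the median was 8.02 log2 units. The list was led by miR-16-5p (14.32 ± 0.08), miR-92a-3p (14.04 ± 0.02) and miR-25-3p (12.74 ± 0.15), which most cell types make (SD, n = 3). miR-486-5p stood above miR-16-5p in each mouse, and miR-451a below both miR-16-5p and miR-92a-3p. The summed share of this list was 2.29%, 2.34% and 2.17% in mice 1, 3 and 9, with mouse 3 highest, unlike that of the erythroid members. Of its 15 rows 4 were highest in mouse 1 and 4 lowest there. Among the 287 miRNAs seen in every mouse, 83 (28.9%) were highest in mouse 1 and 75 lowest there, so these counts do not mark the list out.

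miRNAs known to decline as red cells mature were high as well, and other cells are known to make them. Of 7, 6 stood above the floor in every mouse and miR-155-5p in none, with a median of 10.95. miR-191-5p (15.74 ± 0.23), miR-150-5p (12.81 ± 0.08) and miR-221-3p (11.62 ± 0.18) were the highest. The summed share was 3.20%, 2.47% and 3.18%, lowest in mouse 3, and miR-150-5p, miR-155-5p and miR-223-3p of this list also stand in the leukocyte list below.

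The summed shares of markers of other blood and vessel cells ordered the mice in other ways. Of 8 leukocyte and platelet miRNAs, 5 stood above the floor in every mouse, and miR-155-5p and miR-223-5p never left it. White blood cells make miR-150-5p (12.81 ± 0.08), miR-142-5p (9.86 ± 0.30) and miR-342-3p (10.58 ± 0.22), which were the highest of the list. The summed share of the list was 0.461%, 0.439% and 0.486% in mice 1, 3 and 9, highest in mouse 9, where the erythroid share was lowest. miR-150-5p alone held 0.304%, 0.287% and 0.320% of the summed linear value of all miRNAs, so the share of the list mostly follows that miRNA. Single rows differed: 2 of the 8 were highest in mouse 1 and 2 lowest there, beside 83 and 75 of the 287 miRNAs seen in every mouse. miR-223-3p was highest in mouse 1, at 9.76, 9.08 and 9.52 in mice 1, 3 and 9. The 4 endothelial miRNAs, the highest being the 2 strands of miR-126 (13.37 ± 0.32 for 3p, 12.67 ± 0.22 for 5p) and miR-221-3p, were all seen in every mouse. They summed to 0.866%, 1.08% and 0.889%, highest in mouse 3. The amount of blood in a piece of tissue was not measured, and its part in the erythroid levels was not tested. In bulk tissue more cells of a type and more RNA per cell cannot be told apart.

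Because muscle also makes miR-486, the muscle miRNAs were read beside it. Of 7, only miR-133a-3p (14.78 ± 2.47) and miR-133b-3p (7.65 ± 3.32) stood above the floor in every mouse, and miR-208a-3p and miR-499-5p never left it. miR-133a-3p stood at 11.94, 16.38 and 16.02 in mice 1, 3 and 9. The third by level, miR-1a-3p, was at the floor in mouse 1 and at 5.53 and 3.44 in mice 3 and 9. Of the summed linear value of all miRNAs, the list held 0.166%, 3.62% and 2.82%, and miR-133a-3p alone held 0.166%, 3.59% and 2.79%. The share of the list, in essence 1 miRNA, was lowest in mouse 1, where miR-486-5p and miR-451a were highest. The part of muscle in the miR-486-5p level was not tested.

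**Figure D5:**
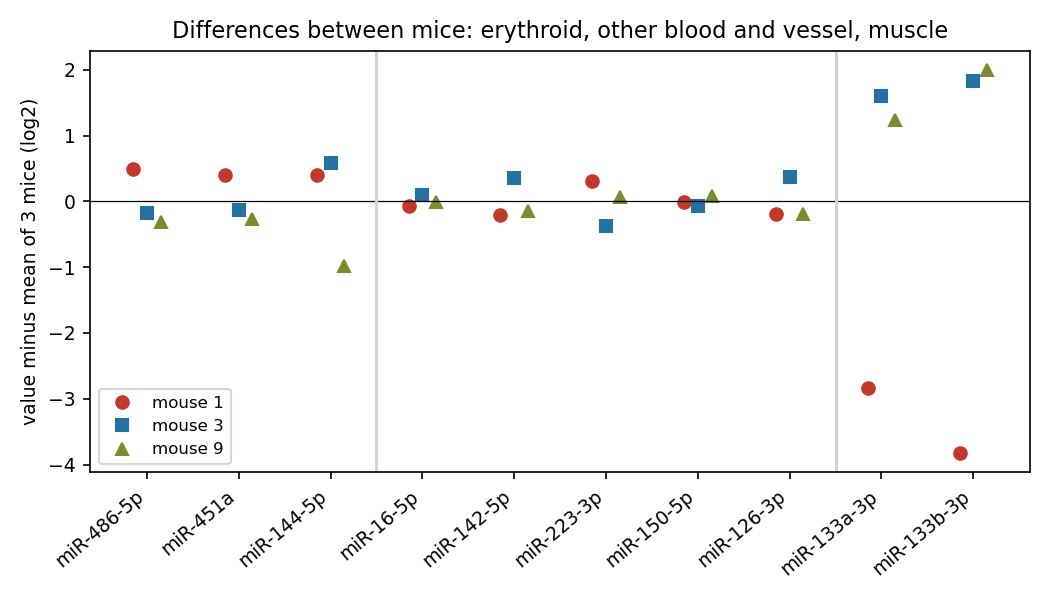
Log2 value minus the mean of the 3 mice (vertical axis) for the erythroid miRNAs seen in all mice, for blood-cell and vessel miRNAs, and for 2 muscle miRNAs, with 1 point per mouse. miR-486-5p and miR-451a are highest in mouse 1 by 0.49 and 0.40 above their means, whereas miR-133a-3p and miR-133b-3p are far below their means in that mouse.

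Marker miRNAs of fat and of other tissues were also read. Their lists were chosen with earlier results of these data known, so this describes the samples and does not check the tissue label. All 5 miRNAs tied to adipocytes were seen in every mouse, at a median of 13.81. The highest were miR-143-3p (17.10 ± 0.17), miR-378a-3p (16.07 ± 0.63) and miR-103-3p (13.81 ± 0.33; SD, n = 3). Both strands of miR-122, the liver miRNA, stood at the floor. Of 5 miRNAs of testis and ciliated epithelium, 2 stood above the floor in every mouse and 2 in none. The highest was miR-34c-5p at 7.67 ± 0.15.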

How the data were processed

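Small RNA libraries were made from total RNA of frozen epididymal fat of 3 mice, per the labels' protocols. The values are deposited log2 values per mature miRNA, 1 column per mouse, matched by title. Per the series' design text, the authors used the Gunaratne pipeline, mapped reads to mm10 (also named in the submitters' processing notes), scaled counts by the total of usable reads and then added 40. Neither aligner nor miRNA annotation is given in the sources used here. The values hold a constant of 10 instead, which is their lowest linear value, and 260 of them fall between 10 and 40. Once sorted, the 3 columns nearly coincide (85 of the top 100 ranks within 1e-06), as quantile normalization leaves them, so differences between mice are in essence differences of rank. The depth of each mouse could not be recovered from these values, and no counting interval is given.

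Linear values are the power of 2 minus 10. Shares are percentages of their sum with the shared miR-486-5p row counted once. Strand ratios (167 of 425 hairpins with both strands listed) and neighbouring hairpins (86 of 147 pairs within 10 kb) were tested with limma 3.58.1 in R 4.3.3, two-sided, with Benjamini-Hochberg adjustment and a threshold of 0.05. Positions for neighbours came from the RefSeq table, which matched 1001 of 1251 rows. Where it held 1 strand of a hairpin, the other was matched by name. On simulated data with differences of 4 log2 units, the strand test recovered 82 of 83 among 167 hairpins with 1 false call. The neighbour test recovered 42 of 43 among 86 pairs with 1 false call. The simulations held no floor and no true differences of another size, so they do not cover a case such as the miR-144 ratio. Folds were computed with RNAfold 2.7.2, figures were drawn with matplotlib 3.10.9, and other steps used scipy 1.17.1, pandas 2.3.3 and numpy 2.4.6 under Python 3.11.15. The simulations used random seed 7.

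The miRNAs named are the members, up to 3 highest of each list, the members at the floor of a list, seed matches, the 2 neighbours in level on each side (for miR-486-5p and miR-451a), the 5 nearest patterns and the 5 largest neighbour differences. miR-1a-3p completes the muscle list. The partner strands miR-486-3p, miR-3107-3p and miR-451b were listed with them. The members and lists were chosen with earlier results of these data known. Alternatives were other constants, filters, priors and distances, median-ratio scaling and leaving out each mouse. Pairs made by single hairpins were added after the data were seen.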

Additional observations from a re-analysis of the deposited data

How the results depend on the processing

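Of 127 recomputed values, 120 were labelled the same. For tests this meant the same direction and side of the threshold, and for levels and shares a move within the spread between mice. Counts and percentages of SDs were held to fixed limits of their own. Part of the 120 was settled beforehand. Leaving out a mouse cannot move a mean beyond the SD, and the sign-flip test cannot reach the threshold with so few mice. Median-ratio scaling cannot change a share. The group's share of 1.79% became 3.30% with the shared row counted under both names, and 1.46% to 1.99% without a mouse. The number of miRNAs seen in all mice, 287, became 174 with detection at 100 above the floor. The strand ratio of miR-144 stayed at 2.01 with no filter, but the adjusted p was 0.0797 (limma warned there that most variances were 0). Without a mouse the ratio ran from 1.64 to 2.41, and without mouse 1 it was 1.98 with an adjusted p of 0.0611. Requiring a mean of 100 above the floor leaves miR-144 out of the strand test. Neighbours with the upstream hairpin higher numbered 41, and 27 when limited to miRNAs made by 1 hairpin. Those with the downstream one higher numbered 43, and 28 within 1 kb. Both limits leave fewer pairs to test. The percentage of miRNAs with a larger SD than miR-451a was 37.1%, and 26.9% among those with a mean of at least 100. The level differences of the members ran from 2.75 to 2.82 for miR-486-5p over miR-451a and from 6.07 to 7.22 for miR-451a over miR-144-5p. For miR-144-5p over miR-144-3p they ran from 0.90 to 4.32, following the constant added. Differences between miRNAs were taken within each mouse, but no comparison between groups was possible because there is 1 group. Levels near the floor, as for miR-144, cannot be separated from missing reads.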
